A study of Mus musculus with 12 samples.

Results

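The genes described here are 10 components of the IL-6 cytokine family and its Jak2-Stat3 pathway, measured in 3T3-L1 cells with and without knockdown of Fto. They are the cytokines Il11, Il6 and Lif, the receptor chains Il6st, Il11ra1, Lifr and Osmr, the signal transducers Jak2 and Stat3, and the inhibitor Socs3. They were taken by gene symbol from a table of 55487 genes, in which each of the 10 symbols had 1 entry. Il11 was chosen by its measured values, since it was among the largest rises in shFto cells at the mitotic clonal expansion stage. Its family and pathway were then added by name. The values at that stage are therefore given as a description, without a test.

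3T3-L1 cells are mouse fibroblasts that become adipocytes when given a hormone cocktail. One line, shScram, carried a scrambled hairpin and the other, shFto, a hairpin directed at the RNA demethylase gene Fto, both delivered by a lentiviral vector and selected with puromycin. Both lines were collected as preadipocytes (Pre), at the mitotic clonal expansion stage (MCE) and as differentiated cells (Diff). In the paper's protocol, induction with MDI medium (IBMX, dexamethasone and insulin) came first, followed by maintenance medium with insulin. By the time points the paper gives for rhein-treated cells, MCE fell at the end of the MDI period. Only Diff cells had the later insulin feeding. Each of the 6 groups had 2 libraries of fragmented total RNA. Which of the study's Fto hairpins the sequenced cells carried is not stated in the sources used here. Nothing in the labels says that the 2 libraries of a group came from separate cultures, so the p-values measure only the spread between these libraries, which may be technical. For replicate 1 of shScram at Diff, the labels conflict (a control by title, a knockdown by treatment), and the group was taken from the title.

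Values are TPM, read abundance corrected for transcript length and scaled to one fixed total in every library, so levels can be compared between genes, but the depth behind each value is unknown. Fto itself lay between 52.7 and 73.5 TPM in the 6 shScram libraries and between 5.51 and 7.47 TPM in the 6 shFto libraries. The 2 shScram libraries at Pre stood apart from each other. Across genes, the correlation of log2(TPM + 1) within that group was 0.939, against 0.990 to 0.993 in the other groups. Of 7 leukocyte markers, Adgre1 and Cd3e were at 0 in all 12 libraries and the summed list reached at most 4.06 TPM. Of 6 endothelial and epithelial markers, Kdr was at 0 in all libraries and the summed list reached at most 0.888 TPM. All 8 fibroblast markers were above 1 TPM in every library. Of 9 adipocyte markers, 8 were above 1 TPM in both shScram libraries at Diff, and Lep, a late adipocyte hormone, was at or near 0 throughout.

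Cytokines of the IL-6 family signal through receptor complexes that share the chain gp130, encoded by Il6st. A ligand-specific chain such as Il11ra1, Lifr or Osmr joins gp130, Janus kinases bound to the complex phosphorylate Stat3, and Stat3 enters the nucleus and switches on target genes. Socs3 is one of these targets and blocks the kinases and gp130, which closes a feedback loop. In fat tissue, members of this family are known for acting on preadipocytes and adipocytes.

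Promoter sequences are shown for the 3 cytokines, which had higher values in shFto cells at every stage, and for Socs3, the feedback inhibitor. All come from RefSeq on GRCm38.p6 and run 5′ to 3′ on the gene's own strand, upstream of a RefSeq start. All 10 genes had an entry, with 13 windows of 250 bases, and both strands were searched for 2 sets of letters. TGANTCA, the letters read by AP-1 factors such as Fos and Junb, was present in the windows of Il11, Il6 and Lif and in none of the other 7 genes. Of 32851 promoter windows of this length, 6.75% held it. TTCNNNGAA, the letters read by STAT factors, was present in the window of Socs3 alone among the 10 genes and in 7.02% of all windows. No window of the 10 genes held both sets of letters. Capitals mark the match, which is a description of the letters and not a measured binding site.
Il11 (chr7:4778142-4778391, minus strand, match at position -98 from the second listed start): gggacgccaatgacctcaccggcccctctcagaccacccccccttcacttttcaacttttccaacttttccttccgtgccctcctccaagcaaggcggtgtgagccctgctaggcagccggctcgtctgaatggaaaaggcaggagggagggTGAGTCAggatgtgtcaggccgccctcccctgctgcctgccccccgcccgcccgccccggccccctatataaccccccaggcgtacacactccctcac
Il6 (chr5:30012864-30013113, plus strand, match at position -249): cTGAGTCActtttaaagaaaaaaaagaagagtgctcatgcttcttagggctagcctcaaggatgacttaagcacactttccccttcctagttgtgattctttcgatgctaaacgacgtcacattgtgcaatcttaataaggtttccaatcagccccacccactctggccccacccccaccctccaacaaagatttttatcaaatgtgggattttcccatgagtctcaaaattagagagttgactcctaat
Lif (chr11:4257318-4257556, plus strand, match at position -228): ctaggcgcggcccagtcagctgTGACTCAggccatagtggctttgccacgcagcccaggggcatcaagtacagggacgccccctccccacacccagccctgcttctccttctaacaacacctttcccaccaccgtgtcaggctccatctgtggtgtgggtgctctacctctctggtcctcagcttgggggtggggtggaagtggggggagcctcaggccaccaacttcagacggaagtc
Socs3 (chr11:117969452-117969616, minus strand, match at position -154): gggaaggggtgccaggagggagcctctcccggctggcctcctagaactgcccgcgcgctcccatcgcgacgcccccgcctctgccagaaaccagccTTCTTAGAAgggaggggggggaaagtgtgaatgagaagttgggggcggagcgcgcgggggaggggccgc
The Lif sequence stops where the first annotated exon of the gene begins, and the Socs3 sequence stops at an annotated exon. The printed Il11 and Socs3 sequences lie inside the span that GENCODE gives the gene, outside its annotated exons.

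**Figure D1:**
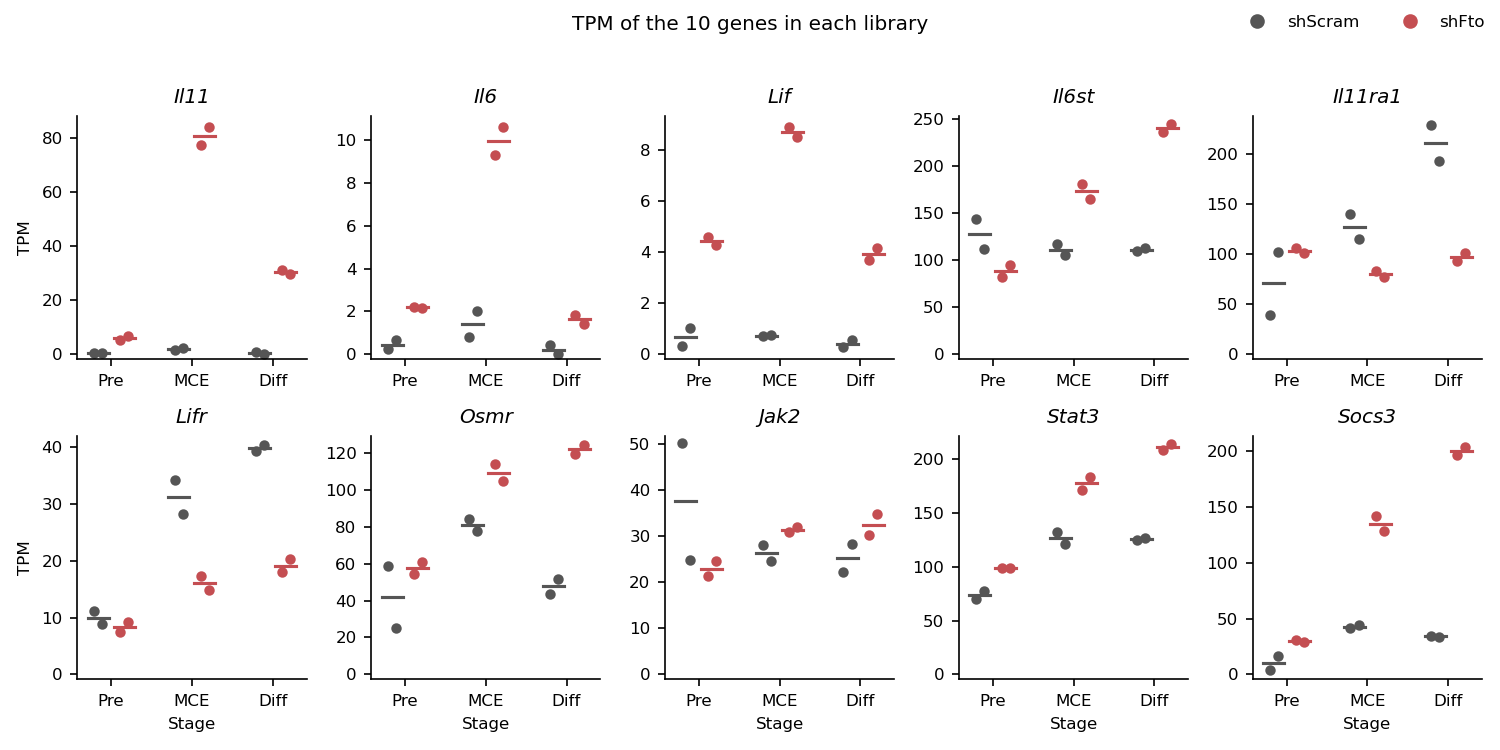
TPM of each of the 10 genes (vertical axis, one scale per panel) in preadipocytes (Pre), at mitotic clonal expansion (MCE) and after differentiation (Diff). Points are libraries, short lines are the means of 2 libraries, grey is shScram and red is shFto. Il11, Il6 and Lif were near 0 in shScram cells and highest in shFto cells at MCE, while Socs3 reached 197 and 204 TPM in shFto cells at Diff.

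Il11, on chromosome 7 from 4772373 to 4782859 (GRCm38, minus strand), encodes a cytokine that binds Il11ra1 and gp130 and is known for its action on stromal cells. In shScram cells, Il11 was at 0.533 and 0.616 TPM at Pre, 1.65 and 2.42 TPM at MCE, and 0.824 and 0.355 TPM at Diff. In shFto cells it was at 5.29 and 6.75 TPM at Pre, 77.5 and 83.9 TPM at MCE, and 31.2 and 29.8 TPM at Diff. Every shFto library was therefore above every shScram library. The order of the 6 groups was shFto at MCE, then at Diff, then at Pre, then shScram at MCE, with shScram at Diff and at Pre overlapping at the bottom. At Pre the difference between the lines was 2.15 ± 0.20 on the log2(TPM + 1) scale (estimate ± standard error, limma adjusted p = 0.000274). At Diff it was 4.32 ± 0.20 (limma adjusted p = 2.28e-06). At MCE, where it chose the gene, it was 4.76 ± 0.20. The added 1 makes differences of low-level genes look smaller than they are, and most shScram values of the 3 cytokines were under 1 TPM.

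Il6, on chromosome 5 from 30013114 to 30019981 (plus strand), encodes the founding cytokine of the family. It was at 0.256 and 0.672 TPM in shScram cells at Pre, at 0.806 and 2.03 TPM at MCE, and at 0.452 TPM and listed at 0 at Diff. shFto cells held 2.23 and 2.14 TPM at Pre, 9.27 and 10.6 TPM at MCE, and 1.86 and 1.43 TPM at Diff. The lines did not overlap within any stage, although the higher shScram library at MCE exceeded both shFto libraries at Diff. Il6 and Lif reached 1 TPM in only 1 shScram library each and passed the filter on low values (1 TPM in 2 libraries) through the shFto libraries, while the other 8 genes would have passed on shScram libraries alone. For the difference between the lines, both are therefore given from a fit of 33021 genes without that filter. There, Il6 differed by 1.14 ± 0.31 at Pre and by 1.13 ± 0.31 at Diff, and neither value passed (limma adjusted p = 0.0614 and 0.0599). At MCE its difference was 2.22 ± 0.28, without a test.

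Lif, on chromosome 11 from 4257557 to 4272514 (plus strand), encodes leukemia inhibitory factor, which signals through Lifr and gp130. It was at 0.321 and 1.04 TPM in shScram cells at Pre, 0.703 and 0.746 TPM at MCE, and 0.276 and 0.569 TPM at Diff. With the Fto hairpin, the values were 4.61 and 4.28 TPM at Pre, 8.89 and 8.48 TPM at MCE, and 3.68 and 4.15 TPM at Diff. As for Il11, every shFto library was above every shScram library, and among the shScram groups Pre overlapped MCE and Diff, which did not overlap each other. In the fit without the filter, Lif rose in shFto cells by 1.73 ± 0.23 at Pre (limma adjusted p = 0.00556) and by 1.79 ± 0.23 at Diff (limma adjusted p = 0.00290). At MCE the difference was 2.49 ± 0.22, without a test.

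Il6st, on chromosome 13 from 112464070 to 112510086 (plus strand), encodes the shared signalling chain gp130. In shScram cells it stayed between 106 and 144 TPM, at 144 and 112 TPM at Pre, 117 and 106 TPM at MCE, and 110.0 and 113 TPM at Diff. In shFto cells it was at 82.6 and 94.9 TPM at Pre, 181 and 165 TPM at MCE, and 236 and 245 TPM at Diff. The shFto libraries were thus below both control libraries at Pre and above them at MCE and Diff. At Pre, Il6st fell by 0.52 on the log2 scale (standard error 0.14, limma adjusted p = 0.0296). At Diff it rose by 1.10 ± 0.14 (limma adjusted p = 0.000845), and at MCE the difference was 0.63 ± 0.14, without a test. The decrease at Pre depended on single libraries. It was -0.34 without replicate 1 of shScram at Pre (limma adjusted p = 0.0335), -0.42 and -0.62 without replicates 1 and 2 of shFto at Pre (adjusted p = 0.170 and 0.0666), and it passed in 4 of 12 fits that left out 1 library.

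Osmr, on chromosome 15 from 6813577 to 6874969 (minus strand), encodes the oncostatin M receptor chain. It was at 59.0 and 25.3 TPM in shScram cells at Pre, 84.5 and 78.0 TPM at MCE, and 43.9 and 51.6 TPM at Diff. shFto cells held 54.3 and 61.1 TPM at Pre, 114 and 105 TPM at MCE, and 119.8 and 125 TPM at Diff. The lines overlapped at Pre and were apart at MCE and Diff. Osmr rose in shFto cells at Diff by 1.34 ± 0.31 (limma adjusted p = 0.0149). Leaving out either library of either line at Diff gave values of 1.23 to 1.46 with adjusted p between 0.0591 and 0.0959 by limma. At Pre the difference of 0.56 ± 0.31 did not pass (limma adjusted p = 0.186), but it was 1.16 without replicate 1 of shScram (limma adjusted p = 9.88e-05) and -0.03 without replicate 2.

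Lifr, on chromosome 15 from 7090614 to 7197489 (plus strand), encodes the receptor chain for Lif. It was at 11.2 and 8.81 TPM in shScram cells at Pre, 34.3 and 28.3 TPM at MCE, and 39.3 and 40.4 TPM at Diff. With the Fto hairpin, the values were 7.44 and 9.17 TPM at Pre, 17.3 and 14.8 TPM at MCE, and 18.0 and 20.3 TPM at Diff. Both lines started from overlapping levels, and the shFto libraries were lower at the later stages. At Diff, Lifr fell by 1.02 in shFto cells (log2 scale, standard error 0.17, limma adjusted p = 0.00317), and this call held in all 12 fits that left out 1 library. At Pre the difference was -0.24 ± 0.17 (limma adjusted p = 0.295), and at MCE it was -0.92 ± 0.17, without a test.

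Since Osmr and Lifr are alternative partners of gp130, their TPM ratio was computed within each library. In shFto cells Osmr was above Lifr by a TPM ratio of 7.30 and 6.67 at Pre, 6.61 and 7.06 at MCE, and 6.65 and 6.14 at Diff. In shScram cells the ratio was 5.27 and 2.87 at Pre, 2.46 and 2.76 at MCE, and 1.12 and 1.28 at Diff. The ratio in shFto cells thus stayed between 6.14 and 7.30 across stages, above all 6 control libraries, of which those at Diff were the lowest.

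Il11ra1, on chromosome 4 from 41699989 to 41769474 (plus strand), encodes the chain that binds Il11. It was at 39.7 and 103 TPM in shScram cells at Pre, 140.0 and 116 TPM at MCE, and 229 and 193 TPM at Diff. In shFto cells it was at 106 and 101 TPM at Pre, 83.0 and 77.2 TPM at MCE, and 93.5 and 101 TPM at Diff. The shFto values were lower than both control values at MCE and Diff and overlapped them at Pre. The difference at Diff was -1.11 ± 0.35, which did not pass the threshold in the fit of all libraries (limma adjusted p = 0.0521). The same value passed without either shScram library at Pre (limma adjusted p = 2.05e-05 without replicate 1 and 2.11e-05 without replicate 2), the group whose libraries, at 39.7 and 103 TPM, were farthest apart. At Pre the difference of 0.69 ± 0.35 did not pass either (limma adjusted p = 0.155), and without replicate 2 of shScram it was 1.36 (limma adjusted p = 7.76e-06). Il11ra1 has a near-identical copy, Il11ra2, and shares exon positions with Ccl27a on the opposite strand. Whether counting used strand is not given in the sources used here, so its values are uncertain.

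**Figure D2:**
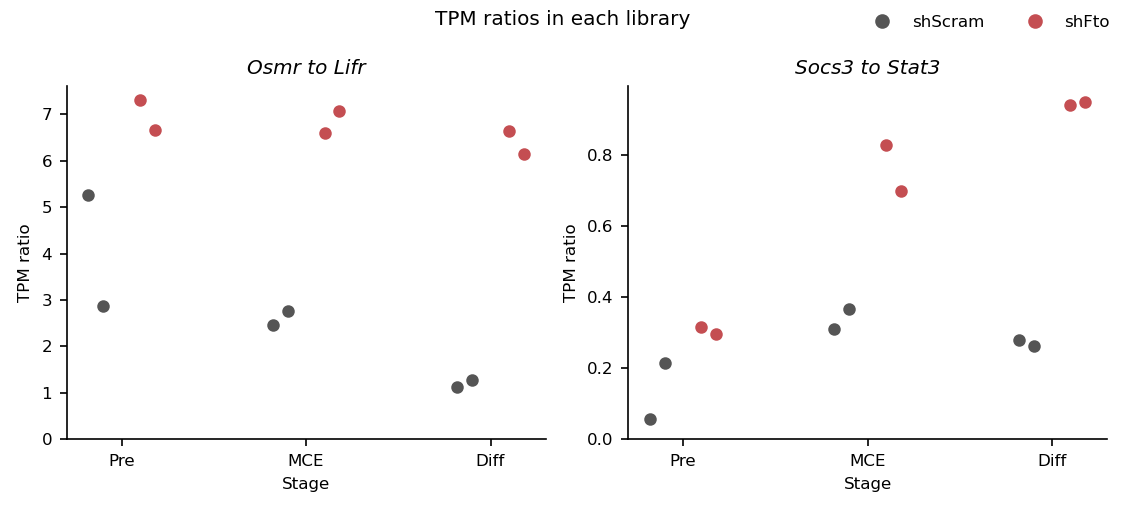
TPM ratios of Osmr to Lifr and of Socs3 to Stat3 (vertical axes, starting at 0) in each library by stage. Points are libraries, grey shScram and red shFto. The Osmr to Lifr ratio lay between 6.14 and 7.30 in shFto cells and went down to 1.12 and 1.28 in shScram cells at Diff.

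Jak2, on chromosome 19 from 29251828 to 29313080 (plus strand), encodes a kinase bound to gp130 complexes. It was at 50.3 and 24.8 TPM in shScram cells at Pre, 28.1 and 24.5 TPM at MCE, and 22.1 and 28.3 TPM at Diff. shFto cells held 21.2 and 24.5 TPM at Pre, 30.8 and 32.0 TPM at MCE, and 30.2 and 34.8 TPM at Diff. Apart from the 1 shScram library at 50.3 TPM, all values lay between 21.2 and 34.8 TPM. Jak2 did not pass at Pre (-0.61 ± 0.28, limma adjusted p = 0.124) or at Diff (0.36 ± 0.28, limma adjusted p = 0.416). Without replicate 2 of shScram at Pre, the Pre value was -1.10 (limma adjusted p = 0.000145). The Diff value passed without replicate 1 or 2 of that group (limma adjusted p = 0.0446 and 0.0436).

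Stat3, on chromosome 11 from 100885098 to 100939540 (minus strand), encodes the transcription factor of the pathway. It was at 70.3 and 77.1 TPM in shScram cells at Pre, 132 and 121 TPM at MCE, and 125 and 126 TPM at Diff. With the Fto hairpin, the values were 98.5 and 99.1 TPM at Pre, 172 and 184 TPM at MCE, and 209 and 215 TPM at Diff. The shFto libraries were above both control libraries at each stage. Stat3 rose in shFto cells by 0.42 ± 0.11 at Pre (limma adjusted p = 0.0215) and by 0.75 ± 0.11 at Diff (limma adjusted p = 0.00129). At MCE the difference was 0.49 ± 0.11, without a test. The Pre call was lost without replicate 1 or 2 of shFto at Pre (0.42 in both, limma adjusted p = 0.103 and 0.0912). Stat3 shares exon positions with Stat5a on the opposite strand, so a part of its reads could be assigned to either gene if strand was not used.

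Socs3, on chromosome 11 from 117966079 to 117970047 (minus strand), encodes the feedback inhibitor. It was at 3.96 and 16.5 TPM in shScram cells at Pre, 41.2 and 44.5 TPM at MCE, and 34.8 and 33.3 TPM at Diff. In shFto cells it was at 31.1 and 29.3 TPM at Pre, 142 and 128 TPM at MCE, and 197 and 204 TPM at Diff. Both shFto libraries exceeded both controls at each stage, and at Pre the control libraries differed widely from each other. Socs3 rose in shFto cells by 2.52 ± 0.44 at Diff (limma adjusted p = 0.00417). At Pre it rose by 1.74 ± 0.44 (limma adjusted p = 0.0225), a size that depended on the control library. It was 0.84 without replicate 1 of shScram (limma adjusted p = 0.000193), 2.65 without replicate 2 (adjusted p = 1.78e-08), and the call was lost without replicate 1 or 2 of shFto at Pre (1.70 and 1.78, adjusted p = 0.115 and 0.0870). At MCE the difference was 1.64 ± 0.44, without a test. Per transcript of Stat3, Socs3 stood at TPM ratios of 0.315 and 0.295 in shFto cells at Pre, 0.828 and 0.698 at MCE, and 0.943 and 0.950 at Diff. In shScram cells these ratios were 0.0564 and 0.213 at Pre, 0.311 and 0.367 at MCE, and 0.279 and 0.264 at Diff. Only in shFto cells at MCE and Diff did a library exceed a ratio of 0.367.

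Il6 and Lif are left out of the count, since they passed the filter only through the shFto libraries. Of the other 8 genes, 3 were higher in shFto cells at Pre (Il11, Stat3 and Socs3) and 1 was lower (Il6st). Of all 15968 genes tested at Pre, 15.9% were called higher and 12.3% lower. At Diff, 5 of the 8 were higher (Il11, Il6st, Osmr, Stat3 and Socs3) and 1 was lower (Lifr), against 11.9% and 9.31% of all genes. The median difference of the 8 genes was 0.49 at Pre and 0.93 at Diff, where the medians of all genes were 0.08 and 0.03. At MCE, 8 of the 10 genes, with Il11, Il6 and Lif among them, had a higher mean in shFto cells and Il11ra1 and Lifr a lower one. This only describes the libraries that chose Il11, and the share of all genes with a higher mean was not computed. The counts moved with single libraries. Without replicate 1 or 2 of shFto at Pre, 1 of the 8 was higher and 0 were lower at Pre, against 4.47% and 2.55% or 4.66% and 4.85% of all genes. Without replicate 1 of shScram at Pre, 4 were higher and 1 lower at Pre (16.3% and 12.9% of all genes), and 6 were higher and 2 lower at Diff (25.5% and 20.5%). Without any one of the 4 libraries at Diff, Osmr was no longer called at that stage, with values of 1.23 to 1.46. The share of all genes called fell as well. In a fit of the 4 Pre libraries alone, 0 of the 14295 genes tested passed by limma, while 2755 had an unadjusted p under 0.05. The summed TPM of the 9 adipocyte markers was 1515 to 1524 in shScram and 417 to 456 in shFto cells at Diff, and 132.8 to 192 against 268 to 299.5 at Pre. At Pre that difference lay in Lpl, at 174 and 112 TPM against 247 and 281 TPM, while the other 8 markers summed to 18.3 and 20.9 TPM against 20.8 and 18.6 TPM. In bulk RNA, fewer cells of a type and less RNA per cell cannot be told apart, and the part of the marker difference in these results was not tested.

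**Figure D3:**
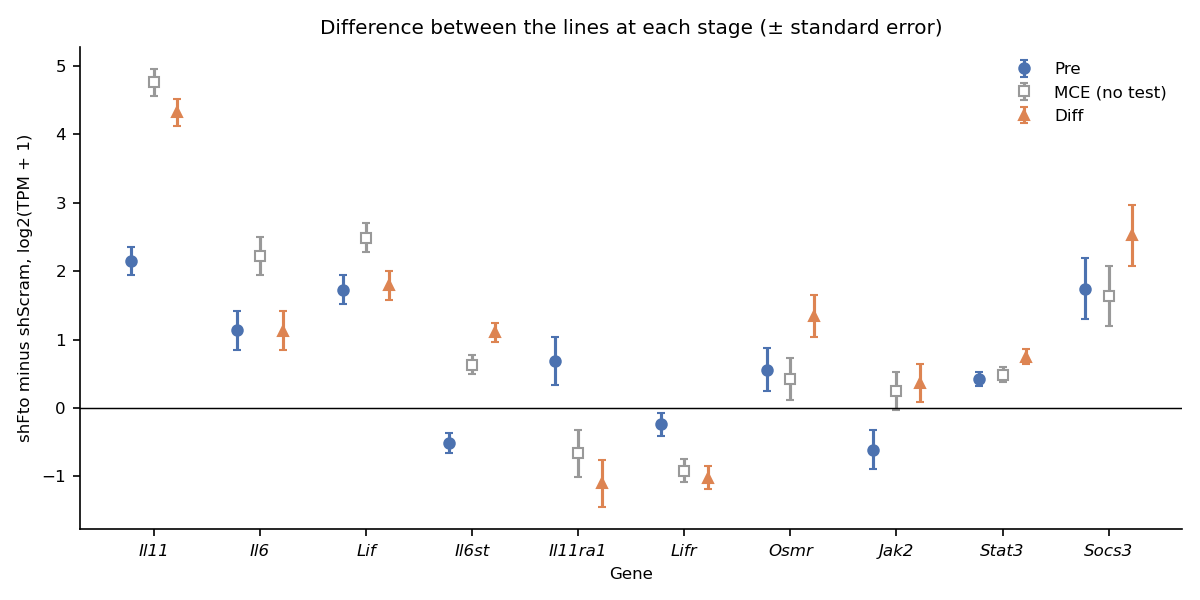
Difference between shFto and shScram cells for each gene on the log2(TPM + 1) scale (vertical axis), as estimates ± standard error from 2 libraries per group. Circles are Pre, open squares MCE (no test) and triangles Diff. Il11 had the largest difference at each stage, 2.15 at Pre, 4.76 at MCE and 4.32 at Diff, and Il6st changed from -0.52 at Pre to 1.10 at Diff.

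Whether the difference between the lines changed from Pre to Diff was tested as an interaction, in which the MCE libraries enter only through the shared spread. It passed for Il11, whose difference was larger at Diff by 2.18 ± 0.28 (limma adjusted p = 0.00261), and for Il6st, which was larger by 1.62 ± 0.20 (limma adjusted p = 0.00241). Both calls held in all 12 fits that left out 1 library. Il6 and Lif are left out here, since they passed the filter only through the shFto libraries. Thus 2 of the 8 genes were called higher and 0 lower, against 4.06% and 3.61% of all genes. The values of the rest did not pass by limma in the fit of all libraries. They were -1.79 ± 0.49 for Il11ra1 (adjusted p = 0.0621), -0.78 ± 0.24 for Lifr (0.0912), 0.97 ± 0.40 for Jak2 (0.183) and 0.78 ± 0.63 for Socs3 (0.465). Stat3 had a value of 0.33 (limma adjusted p = 0.221) and Osmr of 0.78 (limma adjusted p = 0.308). The control library decided several of these. Without replicate 1 of shScram at Pre the value of Socs3 was 1.69 (limma adjusted p = 2.29e-05), and without replicate 2 it was -0.13. For Il11ra1 it was -1.12 and -2.47 without those replicates, both past the threshold (limma adjusted p = 0.00152 and 2.26e-06).

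During differentiation, the stages can also be compared within each line. TPM sums to the same total in every library, and the median of all genes moved by -0.17 from Pre to MCE and by 0.23 from MCE to Diff in shScram cells, and by -0.18 and 0.17 in shFto cells. The stage changes below are therefore given relative to that median, on the log2 scale, beside the adjusted p of the change before this shift. Median-ratio scaling, which sets these medians near 0, also moved the share of higher genes among all called genes, from 31.1% to 53.3% and from 79.3% to 51.1% in shScram cells, and from 30.6% to 50.4% and from 75.7% to 54.4% in shFto cells. No stage change of Il11 that involves MCE was tested, since those libraries chose it. Il6 and Lif passed the filter on low values only through the shFto libraries, so their stage changes are also given without a test.

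Il11, Il6 and Lif are left out of the stage counts. From Pre to MCE, Lifr, Osmr, Stat3 and Socs3 rose in shScram cells and 0 of the tested genes fell, against 12.2% and 26.9% of all genes. In shFto cells Il6st, Lifr, Stat3 and Socs3 rose and 0 fell, against 8.80% and 19.9% of all genes. The rises shared by both lines concerned the receptor for Lif, the transcription factor and its inhibitor. Socs3 rose by 2.40 ± 0.44 in shScram (limma adjusted p = 0.00478) and by 2.31 ± 0.44 in shFto cells (limma adjusted p = 0.00691). The shScram value before the shift, 2.23, was 1.33 without replicate 1 of shScram at Pre, so its size depended on the control library. Stat3 rose by 0.94 ± 0.11 in shScram (limma adjusted p = 0.000683) and by 1.02 ± 0.11 in shFto cells (limma adjusted p = 0.000465). Lifr rose by 1.72 ± 0.17 in shScram (limma adjusted p = 0.000196) and by 1.06 ± 0.17 in shFto cells (limma adjusted p = 0.00479).

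Il6st was called from Pre to MCE in shFto cells but not in shScram cells. The difference of this change between the lines was not tested because it uses the contrast that chose Il11. Il6st rose by 1.14 ± 0.14 in shFto cells (limma adjusted p = 0.00122) and had a value of -0.03 ± 0.14 in shScram cells (limma adjusted p = 0.306). Il6 had a value of 1.96 ± 0.28 in shFto cells and of 0.86 ± 0.28 in shScram cells, without a test. For Lif these values were 1.01 ± 0.22 in shFto and 0.24 ± 0.22 in shScram cells, also without a test. Osmr rose by 1.22 ± 0.31 in shScram cells (limma adjusted p = 0.0256), and this value before the shift, 1.05, was 1.65 without replicate 1 and 0.45 without replicate 2 of shScram at Pre. The call was lost without replicate 1 or 2 of shScram at MCE (values before the shift 0.99 and 1.11). In shFto cells Osmr had a value of 1.09 ± 0.31 (limma adjusted p = 0.0551). Il11 changed by 3.73 ± 0.20 in shFto and by 1.10 ± 0.20 in shScram cells, without a test.

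From MCE to Diff, none of the tested genes was called in shScram cells in the fit of all libraries. There, 20.0% of all genes were higher and 5.22% lower. In shFto cells Il6st was called higher and none lower, against 20.2% and 6.48% of all genes. Without a test, Il6 fell by 2.22 in shFto cells relative to the median of all genes (standard error 0.28) and Lif by 1.15 (standard error 0.22). Il11 changed by -1.54 ± 0.20 in shFto and by -1.17 ± 0.20 in shScram cells, without a test. Il6 fell by 1.19 in shScram cells (standard error 0.28), also without a test. Before the shift this value was -0.96, and it was -0.58 without replicate 2 of shScram at MCE. Il6st in shFto cells had a value of 0.30 ± 0.14 relative to the median, and its call belongs to the change of 0.47 before the shift (limma adjusted p = 0.0385). With median-ratio scaling that change was 0.26 and did not pass (limma adjusted p = 0.269). It did not pass either with quantile normalization, without the filter, without the trend or with the replicate block (limma adjusted p from 0.0524 to 0.0568), and it passed in 2 of 12 fits that left out 1 library. The shScram group at Pre is not compared here but adds to the estimated spread. Leaving out its replicate 1 kept these values and moved the number of calls, among these genes and over all genes. In shScram cells, whether Il11ra1, Lifr, Osmr and Socs3 were called from MCE to Diff depended on that group. Their values before the shift were 0.72, 0.34, -0.76 and -0.32, the same with or without a library of that group.

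**Figure D4:**
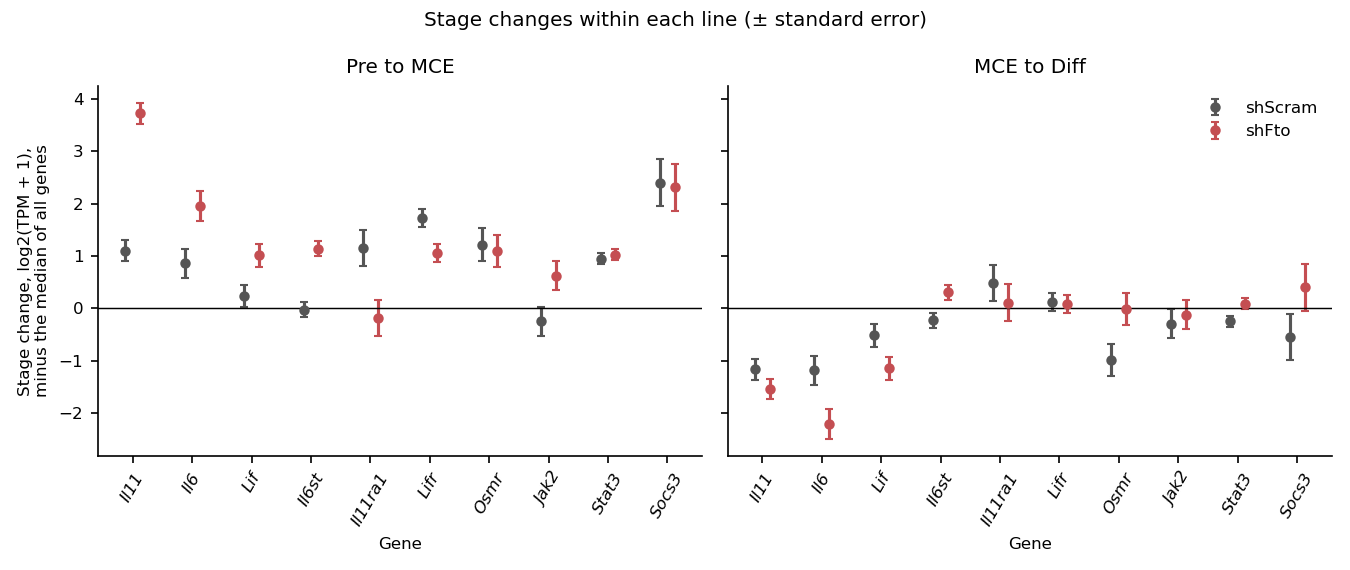
Change of each gene from Pre to MCE (left) and from MCE to Diff (right) on the log2(TPM + 1) scale after subtracting the median change of all genes (vertical axis), as estimates ± standard error, with shScram in grey and shFto in red. From Pre to MCE, Socs3 changed by 2.40 in shScram cells, a size that depended on the control library, and by 2.31 in shFto cells. Il6st changed by -0.03 in shScram and 1.14 in shFto cells.

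The other genes of the pathway were taken from lists by role. Of 9 other ligands and ligand subunits, 4 passed the filter on low values, and Osm, the ligand of Osmr, was listed at 0 TPM in all 12 libraries. None of the 4 was called at Diff. Clcf1, another ligand of the family, was at 43.2 and 45.1 TPM in shFto cells at Pre against 6.45 and 37.0 TPM in shScram cells, which did not pass (limma adjusted p = 0.0879). Of 5 other receptor chains, 3 were tested, with none called at Pre and all 3 lower at Diff, where 9.31% of all genes were lower. The 3 calls became 0 without replicate 1 or 2 of shScram or replicate 2 of shFto at Diff, and 1 without replicate 1 of shFto. They were Il6ra, the chain that binds Il6 (-0.95 ± 0.23, limma adjusted p = 0.0204), Il11ra2 (-0.92 ± 0.23, adjusted p = 0.0193) and Il31ra (-0.61, adjusted p = 0.0312). Il6ra stood at 14.9 and 13.6 TPM in shScram and at 6.66 and 7.08 TPM in shFto cells at Diff.

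Of 9 other Janus kinases and STAT factors, 8 were tested. At Pre 2 were higher (Jak3 and Stat5b) and 0 lower, against 15.9% and 12.3% of all genes, and without either shFto library of that stage 0 were called. At Diff the called genes included Jak3 and Stat2, which were higher, and Stat5a, which was lower. Stat2, which acts in interferon signalling, was at 27.1 and 33.9 TPM in shScram and at 134 and 133 TPM in shFto cells at Diff (2.1 ± 0.14, limma adjusted p = 2.27e-05). Jak3, a kinase of cytokine receptors with the common gamma chain, was at 17.4 and 15.3 TPM against 50.8 and 58.3 TPM (1.68 ± 0.36, limma adjusted p = 0.0114). Of 16 other negative regulators, 15 were tested. At Pre 2 were higher (Cish and Ptpn1) and 2 lower (Socs2 and Ptpn2), against 15.9% and 12.3% of all genes. Without replicate 1 of shFto at Pre these counts were 0 and 0, and without replicate 2 they were 1 and 1. At Diff 2 were higher (Socs2 and Cish) and 1 lower (Ptpn6), against 11.9% and 9.31%. Socs1, another inhibitor of Janus kinases, was at 9.93 and 8.98 TPM in shScram and at 12.2 and 12.3 TPM in shFto cells at Diff, which did not pass (0.35, limma adjusted p = 0.778).

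The list of 20 genes known to respond to Stat3 had 19 tested members. At Pre 14 were higher and 2 lower in shFto cells, with a median difference of 1.29 (0.08 over all genes), where 15.9% and 12.3% of all genes were called. At Diff 11 were higher and 2 lower, with a median of 0.91 (0.03 over all genes), where the shares of all genes were 11.9% and 9.31%. The count of higher genes moved with single libraries. At Pre it was lower without either shFto library of that stage. At Diff it was lower without any library of that stage and higher without either shScram library at Pre. The share of all genes called higher moved the same way in each of these fits. In a fit of the Pre libraries alone, 0 genes of the list were called at Pre, as was the case for all genes. These genes also respond to other factors, including AP-1 and nuclear factor kappa B, and the list was put together with earlier results of these data known.

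Within that list, Saa3, an acute-phase protein, was at 31.6 and 29.1 TPM in shScram and at 1949 and 1619 TPM in shFto cells at Diff (5.83 ± 0.26, limma adjusted p = 2.1e-06). Pim1, a kinase gene, was at 1.65 and 2.18 TPM against 30.3 and 33.1 TPM (3.49 ± 0.25, limma adjusted p = 3.17e-05). Timp1, an inhibitor of matrix metalloproteinases, was at 83.8 and 75.0 TPM against 479 and 493 TPM (2.60 ± 0.37, limma adjusted p = 0.00142). These 3 were also called at Pre, and none of their libraries overlapped between the lines at either stage. Junb, an AP-1 subunit, was at 58.0 and 51.4 TPM against 271 and 298 TPM (2.36 ± 0.69, limma adjusted p = 0.0397), a call that held in 2 of 12 fits that left out 1 library. The 2 lower genes at both stages were Mcl1, which promotes survival, and Ccnd1, which drives the G1 phase of the cell cycle.

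**Figure D5:**
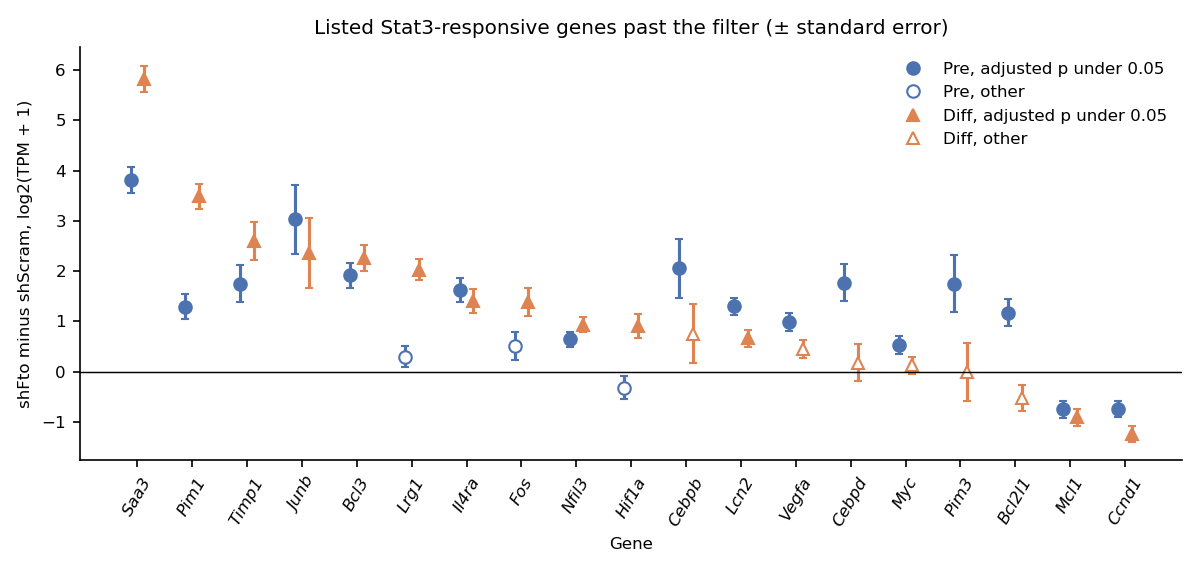
Difference between shFto and shScram cells on the log2(TPM + 1) scale (vertical axis) for the 19 tested genes of the Stat3-responsive list at Pre (circles) and Diff (triangles), as estimates ± standard error. Filled symbols passed an adjusted p under 0.05 by limma. Saa3 had the largest difference at Diff, 5.83, and Mcl1 and Ccnd1 were lower at both stages.

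The genes whose levels followed Il11 and Socs3 most closely were found by Pearson's r of log2(TPM + 1) over the 12 libraries, among 10799 other genes with a mean of at least 5 TPM. The libraries share lines and stages, so these values only describe likeness. For Il11 the 5 closest were Syt13 (r = 0.982), Ak4 (0.978), Ier3 (0.972), Ereg (0.972) and Col23a1 (0.971). Like Il11, Syt13 was at 51.6 and 49.7 TPM in shFto cells at MCE and at 0.488 and 0.175 TPM in shScram cells. For Socs3 they were Mt2 (0.987), Acvr1b (0.981), Ctsb (0.978), Thy1 (0.975) and Syt12 (0.971), and Stat3 followed Socs3 with r = 0.963. Mt2, which encodes a metallothionein, went from 491 and 403 TPM in shFto cells at Pre to 3373 and 2826 TPM at Diff. Among the 10 genes Il11 was most like Lif (0.919) and Il6 (0.873), and least like Il11ra1, the chain that binds it (-0.32).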

How the data were processed

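RNA-seq of 12 libraries (6 groups of 2, grouped by title) was used. Libraries of rhein-treated cells and immunoprecipitated RNA were not analysed here. Per the submitters' processing notes, the authors used Trim Galore 0.6.5 for trimming, HISAT2 2.1.0 for alignment to GRCm38 and StringTie 2.1.4 for quantification against Ensembl genes. The deposited unit is TPM. They tested counts with DESeq2 1.30.1, which could not be repeated because TPM keeps no counts or depth. With 2 libraries a group, precision is limited.

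From the deposited TPM, log2(TPM + 1) was computed. The 15968 genes that reached 1 TPM in 2 libraries or more were fitted with limma 3.58.1 in R 4.3.3, with a mean per group over all 12 libraries (6 residual degrees of freedom), eBayes with a trend, two-sided. P-values were adjusted by Benjamini-Hochberg over all genes tested, and called means an adjusted p under 0.05. For Il6 and Lif, the test between the lines was taken from a fit of all genes above 0 TPM in at least 1 library. Their stage changes come from the fit with the filter and are described without a test. The fit was tested on simulated data. Sequences were read from RefSeq and coordinates from GENCODE M21 with Python 3.11.15. The 10 genes, the lists of other pathway genes and markers, and the tests were chosen with earlier results of these data known. Genes outside the 10 were named as the up to 4 largest called changes at Diff per list (absolute log2 fold change over 1, mean TPM of 5 or more), as the 5 most like Il11 or Socs3, or, after their values were seen, as the genes behind a small count and Osm, Clcf1 and Socs1. Same-numbered replicates did not deviate together (r over 0.1 in 2 of 15 group pairs, range -0.29 to 0.17), so no pairing was used. The results of some listed genes are not reported here.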

Additional observations from a re-analysis of the deposited data

Results flagged for a closer look

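The difference between shFto and shScram cells changed from Pre to Diff for 2 of 8 genes, by a test of the change itself. Il6 and Lif are left out of that count. For Il11 the log2 difference was 2.15 at Pre and 4.32 at Diff, a change of 2.175 (standard error 0.28, limma adjusted p = 0.00261), with both shFto libraries above both shScram libraries at each stage. For Il6st it was -0.52 at Pre and 1.10 at Diff, a change of 1.62 (standard error 0.20, limma adjusted p = 0.00241), with both shFto libraries below the controls at Pre and above them at Diff. Over the other settings the change of Il11 lay between 1.96 and 2.43 and that of Il6st between 1.44 and 1.80.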

How the results depend on the processing

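Among the tests of the 10 genes, Il6 and Lif included, 36 changed their call when some library was left out, 26 of them without a shScram library at Pre. A fit without 1 library leaves its group with a lone sample that is assumed to vary like the others. The counts in this paragraph take in Il6 and Lif, which passed the filter only through the shFto libraries. They describe the settings and are no result about the genes. The numbers called over all genes with 1 library left out close this section. The number of genes called of the 10, Il6 and Lif included (9 for stage changes), ranged with 1 library left out from 2 to 8 at Pre, 6 to 10 at Diff, 3 to 8 from Pre to MCE and 0 to 5 from MCE to Diff in shScram, 5 to 9 and 1 to 6 in shFto cells, and 2 to 6 for the change from Pre to Diff. With only the libraries compared, it was 0 at Pre, 1 and 4 for the shScram stage changes, and 7 from MCE to Diff in shFto cells. From MCE to Diff in shScram cells it was 0 without a filter, with a mean TPM of 5 or more, with the replicate block and by the study's call rule (fold over 2 or under 0.5, unadjusted p under 0.05), and 2 with quantile normalization. By that rule it was 2 from Pre to MCE and 1 from MCE to Diff in shFto cells, the latter also with a mean TPM of 5 or more. The replicate block changed 2 calls in all.

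Direction was reversed in some setting for 12 values, none of which had passed. For the change of Il6 from Pre to Diff it was 0.754 and 0.114 with pseudocounts of 0.1 and 0.5, 0.0057 with median-ratio scaling, and -0.28 to 0.26 with a library left out. Median-ratio scaling gave 0.0297 and -0.268 for Il6st in shScram cells (Pre to MCE, MCE to Diff), and -0.0538 for Osmr and -0.164 for Jak2 from MCE to Diff in shFto cells, while quantile normalization gave -0.0026 for Il6st in shScram and -0.0671 for Jak2 in shFto cells from MCE to Diff. With a library left out, the ranges were -0.24 to 0.38 for Lif and -0.913 to 0.0788 for Jak2 from Pre to MCE in shScram cells. From MCE to Diff they were -0.0685 to 0.0745 for Il6st, -0.235 to 0.105 for Jak2 and -0.0772 to 0.0511 for Stat3 in shScram cells, and -0.0547 to 0.143 for Jak2 in shFto cells. For Osmr at Pre the range was -0.0344 to 1.16, and for the change from Pre to Diff it was -0.25 to 0.38 for Lif and -0.13 to 1.69 for Socs3.

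Over all genes, the number called ranged with 1 library left out from 1113 to 9991 at Pre (4510 with all libraries), 1573 to 7284 at Diff (3391), and 438 to 8127 for the change (1224). For the stage changes the ranges were 3280 to 10284 (6236) and 1597 to 8301 (4023) in shScram, and 2531 to 8145 (4585) and 2002 to 8120 (4256) in shFto cells. With only the libraries compared it was 0, 6771 and 417 in the first 3, and 866, 7112, 8137 and 8723 for the stage changes. By the study's rule it was 2402 at Pre, 1750 at Diff, and 3138, 1938, 2560 and 2226 for the stage changes, and with a mean TPM of 5 or more it was 2260 at Diff and 2677 from MCE to Diff in shFto cells. Apart from the fewer or more libraries in the fit, the cause was not tested.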
